A study of Mus musculus with 14 samples.

Results

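The 200 SOX10 ChIP regions with the highest signal outside chromosomes 4, 11 and X were taken from a deposited list of 7929 regions for PY230 mouse mammary tumors. Of these, 6458 regions lay on the 17 remaining chromosomes and were eligible, so the 200 members made up 3.10% of the eligible regions. The members were selected on the deposited signal itself, so signals and widths are described here and not tested. Among the members, 26 lay in a window of chromosome 1 between 85 and 88 Mb, 16 in a window of chromosome 6 that reached over positions 47610742 to 47728287, and 6 started within 100 kb of position 3 Mb. These 48 members form the 3 position groups below, set apart as places with suspected tandem arrays or repeats. The other 152 members were spread over all 17 chromosomes.

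The list compares 2 SOX10 ChIP samples with 1 control sample, all from PY230 tumors labelled as adult mammary tumors of strain C57BL6J. PY230 is a mouse mammary tumor cell line, and the tumors were raised by transplanting its cells into syngeneic mice. The cells of the ChIP samples held SOX10-AVI, a SOX10 with a short tag, and BirA, which attaches biotin to it. Their chromatin was pulled down on streptavidin beads, washed further with SDS and tagmented on the beads, a procedure called ChIPmentation. The control cells went through the same pull-down, and what they carried, what drives the tagged SOX10 and whether both ChIP samples came from separate tumors are not given in the labels. The series also holds a PY230 input sample and H3K27ac samples of normal fetal and adult mammary cells with their inputs, which were not analysed here. As the list pools both ChIP samples, its values come without replicate error.

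SOX10 is a SoxE transcription factor that bends DNA through its HMG box, and it is known for its part in neural crest, glial and melanocyte cells and in mammary stem and progenitor cells. A ChIP signal at a single-copy site counts fragments of that site alone. Repeated DNA behaves differently, since an assembly can hold fewer copies of a repeat than the genome does, and reads from all copies then fall on those that are drawn. Mouse chromosomes are acrocentric, with satellite repeats at the centromeric end, and the assembled sequence of each chromosome begins after an unsequenced stretch there. Whether any region below lies in a repeat was not read from sequence, as no genome of the build of the list (mm9) was used.

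The members had signals of 0.0564 to 0.626, with a median of 0.0706 (quartiles 0.0603 and 0.140), against a median of 0.0264 (quartiles 0.0188 and 0.0341) in the 6258 other eligible regions. The unit of the signal is not stated. Signal times width came out as a whole multiple of 0.0479, within 0.05 of a multiple, in 96.3% of the 190 members under 1500 bp and in 100% of 5805 such other regions above 0. The signal thus has the form of a mean coverage in which every base of a read adds 0.0479. Read this way, the lowest member had a mean of 1.18 reads over each base and the highest had 13.1, against a median of 0.551 in the other eligible regions. The tolerance of 0.05 was the same at all sizes, so a small error in the step weighs more on large products. The shares of 96.3% and 100% are therefore not a difference between members and others.

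At the lower edge the choice was fine-grained. The last 3 members had signals of 0.0565, 0.0565 and 0.0564, and the next 3 regions, all on chromosome 15, had 0.0563 each. A region on chromosome 17 (13343683 to 13343911) was the last to be taken, and one on chromosome 15 (12214295 to 12215621) was the first left out. Ranks 151 to 200 spanned only 0.0564 to 0.0601, whereas ranks 1 to 20 spanned 0.239 to 0.626. Members at 0.1 or more numbered 60, of which 30 belonged to the 3 position groups.

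**Figure D1:**
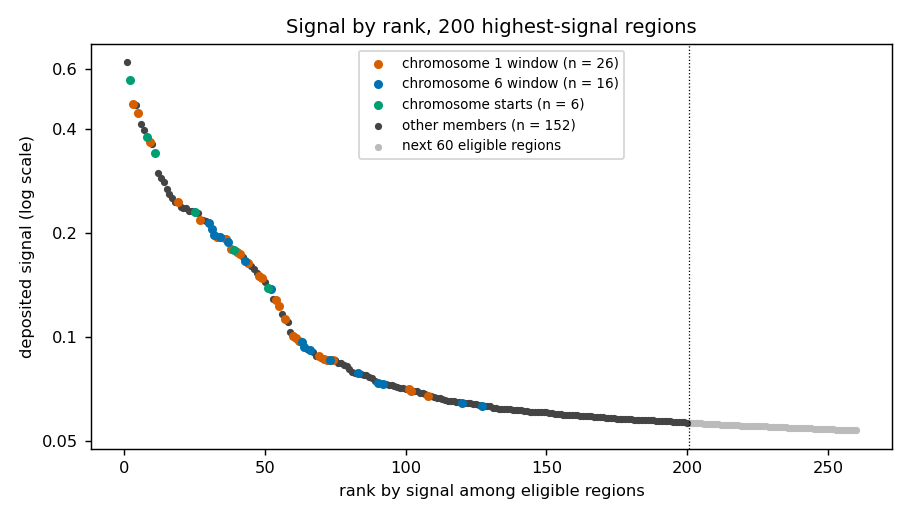
Deposited signal (log scale) of the 200 members and the next 60 eligible regions by rank, 1 point per region, coloured by position group. The curve falls steeply down to about 60 members at 0.1 or more and is nearly flat at the dotted line, where membership ends at 0.0564, and no point of a position group lies beyond rank 150 among the members.

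In the windows of chromosomes 1 and 6, most listed regions were members. On chromosome 1, 26 of 29 listed regions in the window were members (89.7%), and on chromosome 6 it was 16 of 17 (94.1%). Of 12 regions that started within 100 kb of 3 Mb, 6 were members (50%). Outside these places 152 of 6400 regions were members, or 2.38%. The median signal was 0.144 in the 48 members of the 3 groups (quartiles 0.0875 and 0.196) and 0.0642 in the other 152 (quartiles 0.0590 and 0.0825). The groups held 7 of ranks 1 to 20, 17 of ranks 21 to 50, 19 of ranks 51 to 100, 5 of ranks 101 to 150 and none of ranks 151 to 200. They were 24% of the members and 40.6% of the members' summed signal times width. The windows were chosen with earlier results of these data known, and the members were chosen by signal. These shares, ranks and medians thus describe the choice and are no separate result.

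The chromosome 1 group lay in 2 parts, 2.06 Mb apart. The proximal part held 14 members over 216 kb (85111250 to 85326803), with signals of 0.0672 to 0.476 and a median of 0.169. The distal part held 12 members over 161 kb (87388737 to 87550076), with signals of 0.0697 to 0.369 and a median of 0.0999. The highest members of the group were a region of 151 bp (85247375 to 85247525, signal 0.476), a region of 557 bp (85251408 to 85251964, signal 0.448) and a region of 244 bp (87388737 to 87388980, signal 0.369). The first of them stood in a run with the second, where a run joins regions less than 10 kb apart. That run held 4 regions over 11.6 kb (85240413 to 85251964), all of them members, and its other signals were 0.128 and 0.179.

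Width varied widely within this group, at 150 to 3147 bp. The widest, and the highest-signal member of at least 1500 bp, covered 3147 bp (85320437 to 85323583) at a signal of 0.164, and regions of 853 and 1235 bp followed it after gaps of 84 and 1048 bp (signals 0.150 and 0.192). A further 5 runs with 3 or 4 members each lay in the window. They were at 85193787 to 85197615 (highest signal 0.0880), 85279519 to 85283983 (0.219), 87420581 to 87426445 (0.123), 87476176 to 87482811 (0.247) and 87544079 to 87550076 (0.177). All regions of these runs were members. The 3 listed regions of the window that were not members had signals of 0.0287, 0.0348 and 0.0509. The high signals did not stop at the window's edge, since 3 members lay just before it, at 84973267 to 84973481 (signal 0.158), 84988742 to 84990193 (0.129) and 84991610 to 84991918 (0.0901).

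The chromosome 6 group mixed stronger and weaker regions in 2 runs. These held 9 regions over 24.8 kb (47610742 to 47635572, 8 of them members) and 7 regions over 20.8 kb (47687300 to 47708071, all members), and a single member of 277 bp followed at 47728011 to 47728287 (signal 0.0933). Signals fell into 2 classes with none between 0.0964 and 0.137. The 7 stronger regions had signals of 0.137 to 0.214 and widths of 704 to 1038 bp, and the 10 weaker ones had 0.0494 to 0.0964 and widths of 235 to 724 bp. The 3 highest were at 47623965 to 47624781 (0.214), 47615382 to 47616208 (0.206) and 47687300 to 47688149 (0.197).

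Some distances between the centres of these regions recurred, though the order of the classes was not regular and weaker or stronger regions also followed their own kind. Of the 7 stronger regions, 6 were followed directly by a weaker one, at centre distances of 2.57, 2.34, 2.55 and 2.49 kb in the first run and 2.64 and 2.67 kb in the other. From a weaker region to the next weaker one, distances were 4.31, 4.44, 4.34 and 8.4 kb in the first run and 4.40, 4.19 and 4.97 kb in the other. From a stronger region to the next stronger one they were 4.53, 8.58 and 8.46 kb in the first run, and 4.0 and 13.5 kb in the other. Within a class, the distances thus lay between 4.0 and 4.97 kb or at 8.4 kb and more. From a weaker region to a stronger one directly after it they were less even, at 1.96, 1.80 and 5.91 kb in the first run and 2.30 kb in the other. The limit of 0.1 between the classes and the pairs measured were chosen after the values had been seen, and the spacing was not tested.

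The group at chromosome starts came from chromosomes 6 and 17 alone. On chromosome 17 a run of 5 regions over 4.36 kb (3080209 to 3084569) was made up of members only, with signals of 0.381, 0.559, 0.230, 0.178 and 0.139 in their order along the chromosome. The strongest of them (3081520 to 3082169, 650 bp) was the second-highest member of all, and the strongest neighbour (3080209 to 3080887) ranked eighth. Chromosome 6 gave a member of 215 bp (3000777 to 3000991, signal 0.342), the strongest of its chromosome. The 6 regions at chromosome starts that were not members lay on chromosomes 6, 7, 8, 13 and 15. Their signals of 0.0191 to 0.0561 did not overlap with the 0.139 to 0.559 of the members, as the choice of members fixes. A pair of members on chromosome 18 (3115597 to 3116335 and 3116398 to 3119283, signals 0.0643 and 0.0840) lay just beyond the limit of 100 kb and counts among the other members.

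**Figure D2:**
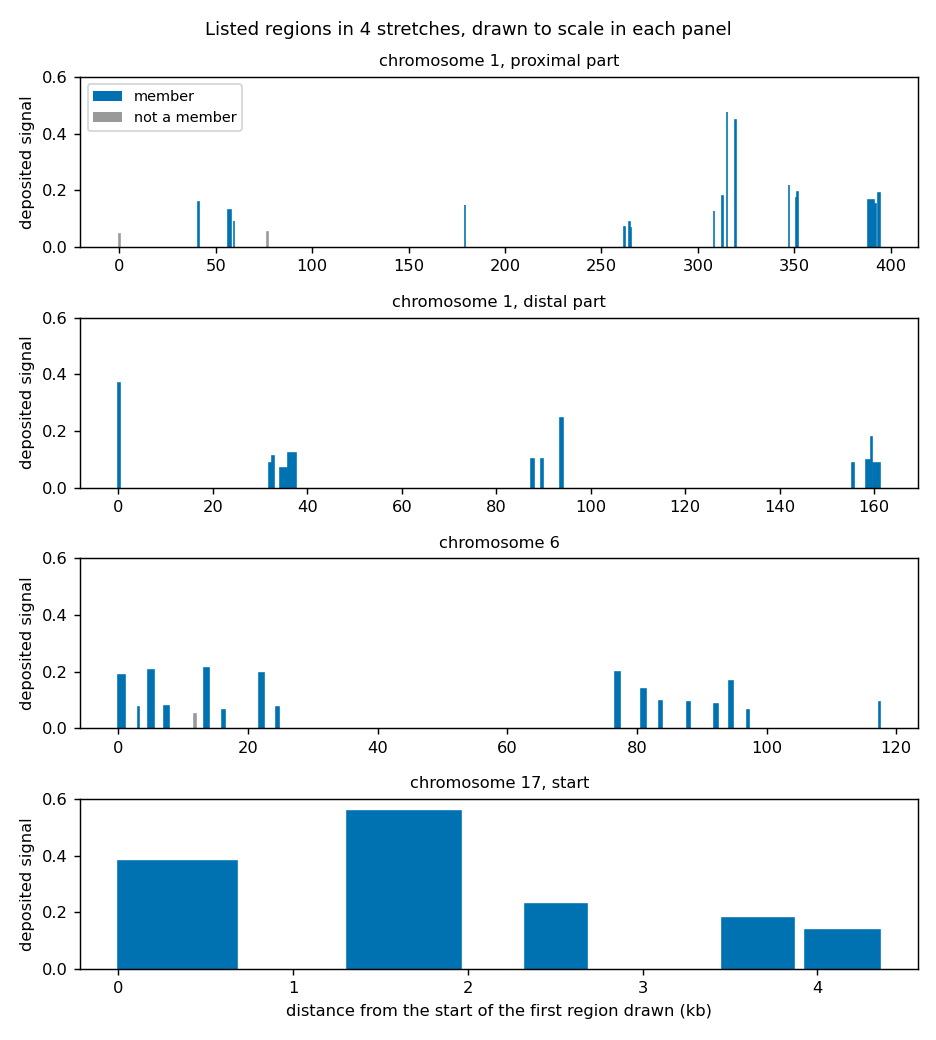
Listed regions along 4 stretches, with the deposited signal as bar height, the region's width as bar width (a thin outline keeps narrow bars visible) and the distance in kb from the first region drawn on the horizontal axis. Members are blue and other regions grey, and the chromosome 6 panel shows the stronger bars of 0.137 to 0.214 each followed, in 6 of 7 cases, by a weaker bar.

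Outside the position groups, the strongest members were mostly narrow and mostly had no close neighbour. At a signal of 0.2 or more there were 20 such members on 12 chromosomes, with signals of 0.218 to 0.626 and a median width of 204 bp (quartiles 140 and 306, range 98 to 478). Of these, 14 were under 300 bp. Only 2 of the 20 had another listed region within 10 kb, and 11 (55%) had none within 100 kb. Among the 122 members below 0.1 outside the groups, 22 (18%) had none within 100 kb, and among the 6258 other eligible regions it was 1413 (22.6%). The limits of 0.1 and 0.2 were set after the signals had been seen. A further 11 members at 0.2 or more lay in the position groups. The 20 are thus what was left once those stretches, mostly of regions with close neighbours, were taken out. Narrowness is also tied to the choice of members if the signal is a mean per base, with width as its divisor.

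The highest member of all was on chromosome 16 (11144009 to 11144423, 415 bp, signal 0.626), 130 kb from its nearest neighbour and 22.3 times the median signal of the whole list. Chromosome 2 followed with one of 222 bp (5300195 to 5300416, signal 0.472), 92.3 kb from the next. Chromosome 3 gave one of 278 bp (8246284 to 8246561, signal 0.414), 19.2 kb from the next. Chromosome 1 had one of 142 bp (104524791 to 104524932, signal 0.398) with no other within 2396 kb. The tenth member, on chromosome 14 (105115039 to 105115223, 185 bp, signal 0.364), had none within 535 kb.

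Further strong members of this kind were the strongest of their chromosomes. Chromosome 18 had the narrowest of all 200, at 98 bp (65996979 to 65997076, signal 0.290). On chromosome 15 it was a region of 140 bp (47371558 to 47371697, signal 0.282) with none within 2822 kb. On chromosome 5 it was one of 351 bp (15114196 to 15114546, signal 0.236), on chromosome 8 one of 318 bp (15519807 to 15520124, signal 0.232) and on chromosome 19 one of 335 bp (61275416 to 61275750, signal 0.230). Among these, chromosome 7 was the exception in grouping. Its strongest region (12595743 to 12596220, 478 bp, signal 0.269) had a second member 0.7 kb away (12596921 to 12597145, signal 0.160). The other of the 20 with a neighbour within 10 kb was on chromosome 5 (33068128 to 33068265, signal 0.236) and not its chromosome's strongest. A further member lay 3.3 kb from it (33071571 to 33071918, signal 0.171). Chromosome 16 held 3 of the 20 and chromosome 1 held 4. At the other end, no region of chromosomes 9, 10, 12 or 13 outranked 68, and their best reached ranks 91, 85, 68 and 70 in that order. These best regions were 773 bp on chromosome 9 (44728759 to 44729531), 528 bp on chromosome 10 (19953253 to 19953780), 1826 bp on chromosome 12 (94120996 to 94122821) and 149 bp on chromosome 13 (25099699 to 25099847).

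Signals between 0.1 and 0.2 were scarce outside the position groups, with 10 members (median width 514 bp). Of these, 4 belonged to a further local group on chromosome 8, noticed after the values had been seen. All 6 listed regions between 19707137 and 20020646 there were members, over 314 kb, with signals of 0.0779 to 0.153 and widths of 549 to 1375 bp. They included 2 close pairs, with centres 0.876 and 0.741 kb apart, and the remaining regions lay 77.3 to 127 kb from their neighbours by centre. Another 2 of the 10 were the regions just before the chromosome 1 window.

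The remaining 122 members, with signals of 0.0564 to 0.0920, were closer in form to the rest of the list. Their median width was 518 bp (quartiles 364 and 761), against 678 bp in the other eligible regions, and 45.9% had a neighbour within 10 kb. The widest member of all was among them, of 5473 bp on chromosome 15 (50714695 to 50720167, signal 0.0584) in a run of 6 regions. All 7 members of at least 1500 bp outside the position groups had a neighbour within 10 kb. They included a pair on chromosome 12 of 1826 and 1663 bp (94120996 to 94122821 and 94129393 to 94131055, signals 0.0881 and 0.0623), with centres 8.32 kb apart, and a pair on chromosome 6 (68192045 to 68193813 and 68199935 to 68202265, signals 0.0578 and 0.0667). The share with a close neighbour was not taken for other eligible regions of this width. Over all widths it was 36.0% of the other eligible regions.

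Over all members, the median width was 478 bp (quartiles 301 and 713), against 678 bp (quartiles 493 and 952) in the other eligible regions. Members under 300 bp numbered 49, or 24.5%, against 5.24% of the others. At 1500 bp or more the shares were 5.0% and 6.33%. Width enters the signal as its divisor if the signal is a mean per base, so the narrowness of the members is part of how they were chosen. Across the 200 members, width and signal had a Spearman rho of -0.234. It was -0.0609 in the 48 within the position groups and -0.325 in the 152 outside them, but -0.0668 in the 122 of these with signals under 0.1. In the 6258 other regions rho was 0.172. These correlations describe regions of 1 list that share its libraries and depth.

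**Figure D3:**
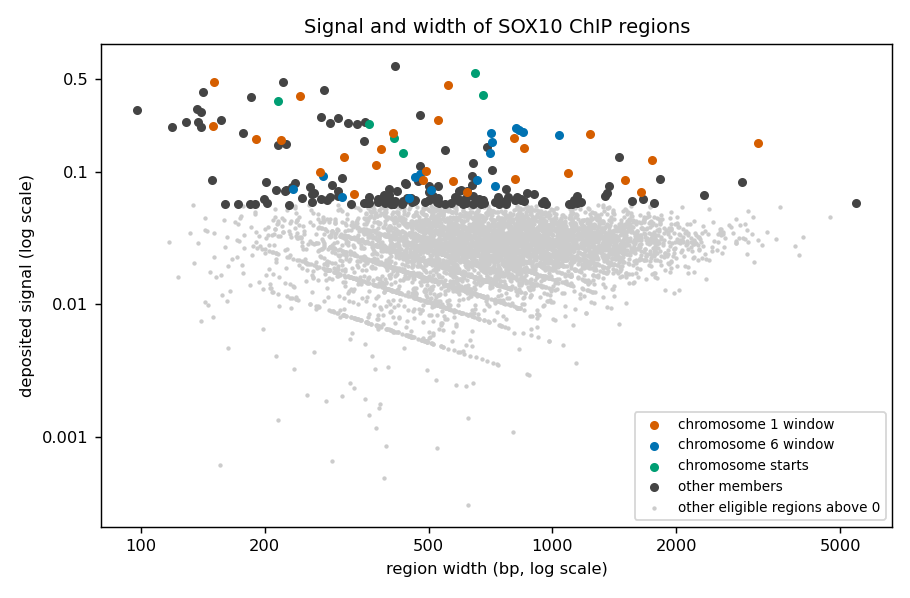
Deposited signal against region width (both log scales) for the members, coloured by position group, and for the other eligible regions above 0 in grey. Members outside the groups (dark) at 0.2 or more lie at widths of 98 to 478 bp, whereas the chromosome 1 group reaches from 150 to 3147 bp.

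Members lay close to another listed region more often than the rest did, most of all in the position groups. A neighbour within 10 kb was listed for 109 members, or 54.5% (95% exact interval 47.3 to 61.5), against 36.0% of the other eligible regions (34.9 to 37.3). These intervals cover counting error only, and neighbouring regions are not independent. In the position groups the share was 91.7% (44 of 48), and outside them it was 42.8% (65 of 152, interval 34.8 to 51). The difference between these shares was not tested. The interval outside the groups includes the 36.0% of the other eligible regions, but it pools unlike sets of members. There the share was 10% (2 of 20) at signals of 0.2 or more. It was 70% (7 of 10) at signals of 0.1 to 0.2 and 45.9% (56 of 122) under 0.1. These signal limits were set after the signals had been seen. The windows were chosen with earlier results known, so the share inside them is a description only. Joining regions within 10 kb put the members in 154 units. Single regions made up 91 of these, 41 were runs with 1 member, 12 were runs with 2 members, and 10 were runs with 3 or more. The 10 runs held 44 of the members and 45 listed regions in all, and each of them lay in a position group.

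**Figure D4:**
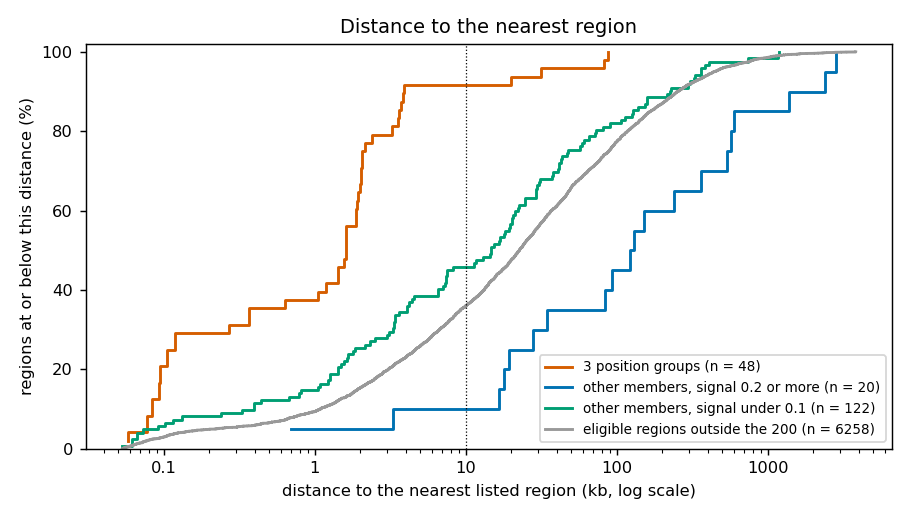
Cumulative share of regions (%) by distance to the nearest listed region (kb, log scale), with a dotted line at 10 kb. At 10 kb the position groups stand at 91.7%, the members at 0.2 or more outside them at 10%, those under 0.1 at 45.9% and the other eligible regions at 36.0%.

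Outside the position groups, members were found on every eligible chromosome, and their share of the listed regions ranged from 0.946% on chromosome 9 (3 members of 317 regions) to 4.86% on chromosome 5 (17 of 350). Chromosome 17 followed with 4.55% (9 of 198) and chromosome 1 with 3.38% (21 of 621). Chromosomes 10, 2 and 3 had 0.95%, 1.11% and 1.20%. The median signal of all listed regions outside the groups was also highest on chromosome 5, at 0.0325. It was 0.0251 on chromosome 17 and 0.0241 on chromosome 9, and its relation to the shares was not tested. The exact 95% interval was 2.85 to 7.66% on chromosome 5 and 0.196 to 2.74% on chromosome 9. These are the highest and lowest of the 17 chromosomes, picked by their shares, so their intervals do not decide whether chromosomes differ. No test was run over the 17 chromosomes, whose regions are not independent. Chromosome 13 had 15 members, none of them at 0.2 or more.

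**Figure D5:**
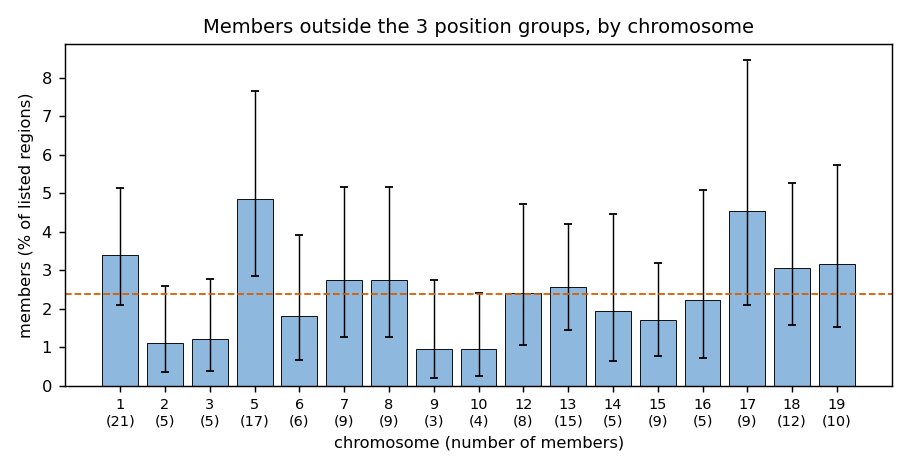
Members outside the position groups as a percentage of the listed regions of each chromosome, with exact 95% intervals for counting error and the number of members in brackets. The dashed line is the share over all these chromosomes, 2.38%, and chromosome 5 stands highest at 4.86% and chromosome 9 lowest at 0.946%.

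A member's signal often rested on few reads. Dividing signal times width by 0.0479 and by 54, taken as the read length, gave a median of 15.8 read equivalents per member (range 3.56 to 200), against 7 in the other eligible regions. These are a reading of the values and not reads counted by the authors, and they may be net of a control. Under 10 read equivalents were found in 48 members, or 24%, against 70.1% of the others. In the chromosome 1, chromosome 6 and chromosome start groups the medians were 27.7, 21.9 and 30.2, and in the other members it was 14.0. The 40 members under 300 bp outside the groups had a median of 7.39. At 98 bp, the narrowest member held 11 read equivalents, and the region on chromosome 17 that closed the list held 5.0.

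Where signal times width was a whole multiple of the step, that multiple was also a multiple of 54 in 30 of 183 members (16.4%), against 2419 of 5805 other regions (41.7%). It was so in 1 of 40 members of the position groups and in 29 of 143 other members (20.3%). Whole reads inside a region would give such values, and parts of reads that sum to 54 would as well. This was not tested, and the read equivalents per region also differed between these sets. All 200 members together covered 122 kb, which was 2.45% of the eligible length, and held 8.44% of the eligible read equivalents.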

How the data were processed

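A single deposited list, without a header, holds the regions of both SOX10 ChIP samples set against the control. The authors' signal column has no stated unit or formula. Per the submitters' processing notes, which give no roles or parameters, the build was mm9 and the tools were MACS2 2.1.1, SAMtools 1.3.1, Bowtie 0.12.8 and FastQC. Not given in the sources used here are the calling threshold and how duplicate and multiply mapped reads were treated, the last of which bears on any signal in repeats. The depth of each sample is unknown.

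Coordinates are those of the list, with 1-based starts. Regions off chromosomes 4, 11 and X were ranked by signal (Python 3.11.15, pandas 2.3.3, scipy 1.17.1), with ties by chromosome and start. Gaps to neighbours were taken over the whole list. Regions are not replicates, so no test was run. Exact binomial intervals cover counting error. The step search and the joining of runs were tested on simulated data. The simulated products were exact whole multiples, so rounded values and the read length were not covered. Regions named are the 10 highest, the 3 highest of each group, the highest of each chromosome, the narrowest, the widest, those at the threshold and runs with at least 3 members, and further ones chosen after their values were seen. The members and position windows were chosen with earlier results of these data known. Genes and sequences at the regions were not analysed here, since the reference tables were of GRCm38.p6, another build. Alternatives were other numbers of members, a ranking by signal times width, a width minimum or maximum, other window limits and other gap limits.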

Additional observations from a re-analysis of the deposited data

How the results depend on the processing

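No paired analysis was possible because both ChIP samples were pooled in the list, which also keeps any library from being left out. The share of members in the 3 position groups was 24% (48 of 200). It was 43% among the 100 highest, 12.8% among the 400 highest and 13.5% when regions were ranked by signal times width, and with other window limits or a minimum of 300 bp it stayed between 19.5 and 25.5%. The median width of members minus that of the other regions was -200.5 bp. It was -258.5 bp for the 100 highest and -127 bp for the 400 highest. Ranked by signal times width it turned to 1102 bp (1767 against 665 bp), as such a ranking favours wide regions by its construction. Leaving out the position groups, regions at 0 or regions of 1500 bp or more gave -220, -204.5 and -191 bp. The excess of members with a neighbour within 10 kb was 18.5 percentage points. It was 8.13 points for the 400 highest, 6.71 points for members outside the position groups and 10.6 points with a limit of 50 kb. For the 100 highest it was 23.7 points, with a limit of 5 kb 24.1 points, and ranked by signal times width 18.5 points. The higher median signal of the position groups (0.0794 above the other members) stayed between 0.0533 and 0.0823 in all 6 alternatives. Signal chose the members, and the windows were set with earlier results known. All alternatives kept both choices in essence, so this stability is a description and no support for a difference. Starting the chromosome 1 window 100 kb earlier and leaving out regions of 1500 bp or more were alternatives added after the data had been seen. With a median of 15.8 read equivalents, the order of members near the threshold is limited by counting error.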

Other observations

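Ranked by signal times width instead of signal, 56 of the 200 members kept their place and 144 other regions entered, 130 of them at least 1500 bp wide. The entering regions had a median width of 1991 bp and a median signal of 0.0400, and the 144 members that left had a median width of 434 bp. Of the 48 members in the position groups, 22 left and 1 other region of these groups entered. The region with the largest product was the one of 3147 bp on chromosome 1 (85320437 to 85323583, 200 read equivalents), followed by the region of 650 bp near the start of chromosome 17 (3081520 to 3082169, 140 read equivalents). The third was the region of 5473 bp on chromosome 15 (50714695 to 50720167, 124 read equivalents), which ranked 169 by signal. A wide neighbour on the same chromosome (50756449 to 50761161, 4713 bp, signal 0.0455) ranked 552 by signal and 9 by the product. The highest member by signal, on chromosome 16, ranked 4 by the product at 101 read equivalents.

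The last listed region of chromosome 1 (197067734 to 197068022, 289 bp, signal 0.232) was a member, and was the only member that was the last of its chromosome. On chromosome 19 the strongest member (61275416 to 61275750) ended 17.1 kb before the end of the last listed region.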
